A study of Homo sapiens with 6 samples.

Results

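The genes described here are 35 genes of DNA replication and S phase, taken by symbol from the deposited tables of 23686 genes. All 35 were found, and all 35 passed the filter on low counts (at least 10 reads in at least 2 libraries), as did 14481 genes in all. They were measured by RNA sequencing in 2 human non-small cell lung carcinoma lines, A427 and HCC15, with 1 library for each line and siRNA and 6 libraries in all. In each line the groups were a control siRNA (labelled Tax), LGR6 siRNA number 2 and LGR6 siRNA number 4. Both lines were labelled wild type, were grown in RPMI medium with 5% fetal bovine serum and were collected 48 h after transfection. LGR6 is a receptor of the R-spondin family of Wnt-pathway ligands, and the study asked which genes depend on it. Nothing in the labels tells if separate cultures gave the libraries of a line.

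Replication begins with licensing. The origin recognition complex, of which ORC1 and ORC6 are subunits, marks origins, and CDC6 and CDT1 help it load the ring of MCM2 to MCM7 onto DNA. CDC45 and the GINS complex then turn that ring into an active helicase, polymerase alpha with its primase lays down primers, and PCNA, loaded by replication factor C, holds the polymerases on the template. Many of these genes are transcribed at the transition from G1 into S phase by E2F factors, which makes them common markers of proliferation in tumour cells. In a bulk sample, fewer cells in S phase and less of a transcript in each cell cannot be told apart.

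Total counts ran from 25546400 to 28987900 reads per library, and the 35 genes together took 0.416% to 0.511% of them. LGR6 had 257 reads in the HCC15 control library, 39 with siRNA 2 and 77 with siRNA 4. In A427 it had 5 reads in the control library and 0 with either LGR6 siRNA, so that line had little LGR6 to lose. The epithelial keratin KRT8 stood at 276 TPM (a level per transcript length) or more in every library. KRT19 was at 0.38 TPM or less in A427. Of the markers of other cell types, CD3E and LYZ (leukocytes) and DCN (fibroblasts) were at 0 TPM in all 6 libraries. The 5 leukocyte markers summed to 1.33 to 3.25 TPM, mostly PTPRC in A427 (1.22 to 1.58) and CD14 in HCC15 (2.21 to 2.83). The 4 fibroblast markers summed to 4.76 to 11.5 TPM, mostly COL1A1, and the 3 endothelial markers to 0.25 TPM or less. Their part in the results was not tested. No 2 libraries shared both line and siRNA. The fit of line plus siRNA therefore measured its spread as how far an siRNA effect differed between the lines, and its p-values do not measure the spread between repeats of a condition.

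The clearest change among the 35 genes was in ORC6, a subunit of the origin recognition complex. It fell with siRNA 4 in both lines and did not fall with siRNA 2. Levels are given below as CPM, the share of reads scaled to a common library size by TMM. In A427, ORC6 was at 34.7 CPM in the control library, 39.0 under siRNA 2 and 15.8 under siRNA 4. The HCC15 values, in the same order, were 47.5, 48.5 and 21.4 CPM. Both siRNA 4 libraries lay below the other 4 libraries, with no overlap. Over both lines ORC6 was 2.21-fold lower with siRNA 4 than with the control, a log2 fold change of -1.14 (SE 0.14, adjusted p = 0.00232, edgeR with Benjamini-Hochberg adjustment over all genes). Against siRNA 2 it was 2.37-fold lower, at -1.24 (SE 0.14, adjusted p = 0.00149, edgeR, Benjamini-Hochberg). For siRNA 2 against control the value was 0.10, with an interval of -0.20 to 0.40. Without the HCC15 control library, the fall against control stood at -1.10 and missed the threshold (adjusted p = 0.0756, edgeR, Benjamini-Hochberg), and it passed without any of the other 5 libraries. The fall against siRNA 2 passed without any 1 of the 6.

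PRIM1, the catalytic subunit of the primase that makes the RNA primers, was the other gene to fall with siRNA 4. The A427 libraries held 53.4 CPM (control), 57.0 (siRNA 2) and 36.5 (siRNA 4), and the HCC15 libraries 50.3, 48.8 and 37.5. Again the siRNA 4 libraries were the lowest of the 6, without overlap. The log2 fold change was -0.49 against control (SE 0.13, adjusted p = 0.0479) and -0.51 against siRNA 2 (SE 0.13, adjusted p = 0.0340), both by edgeR with Benjamini-Hochberg adjustment. These adjusted p lay near the threshold. Against control, leaving out the A427 control library gave an adjusted p of 0.297 and leaving out the A427 siRNA 4 library 0.188 (edgeR, Benjamini-Hochberg). Leaving out their HCC15 counterparts gave 0.350 and 0.152 (edgeR, Benjamini-Hochberg), with log2 fold changes between -0.39 and -0.58 over these 4 fits. Against siRNA 2 it did not pass when any 1 of the 6 libraries was left out, with adjusted p from 0.0796 to 0.148 (edgeR, Benjamini-Hochberg).

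E2F1, the transcription factor that drives many S-phase genes, was lower with siRNA 4 than with siRNA 2. It was at 83.5, 101 and 72.9 CPM in A427 (order: control, siRNA 2, siRNA 4) and at 65.1, 66.0 and 46.8 in HCC15. In each line siRNA 4 gave the lowest value, while the A427 siRNA 4 library stayed above all 3 HCC15 libraries. The log2 fold change between the siRNAs was -0.48 (SE 0.13, adjusted p = 0.0377), and against control it was -0.34 (SE 0.13, adjusted p = 0.127) for siRNA 4, both by edgeR with Benjamini-Hochberg adjustment. The difference between the siRNAs missed the threshold when any 1 of the 6 libraries was left out (adjusted p 0.0618 to 0.225, edgeR, Benjamini-Hochberg), and with no filter on low counts (adjusted p = 0.0525, edgeR, Benjamini-Hochberg). Its relative E2F2 was at 52.5, 58.0 and 41.6 CPM in A427 and 39.8, 32.6 and 28.5 in HCC15, lowest with siRNA 4 in each line, with -0.34 between the siRNAs (SE 0.15, adjusted p = 0.151, edgeR, Benjamini-Hochberg), which did not pass.

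**Figure D1:**
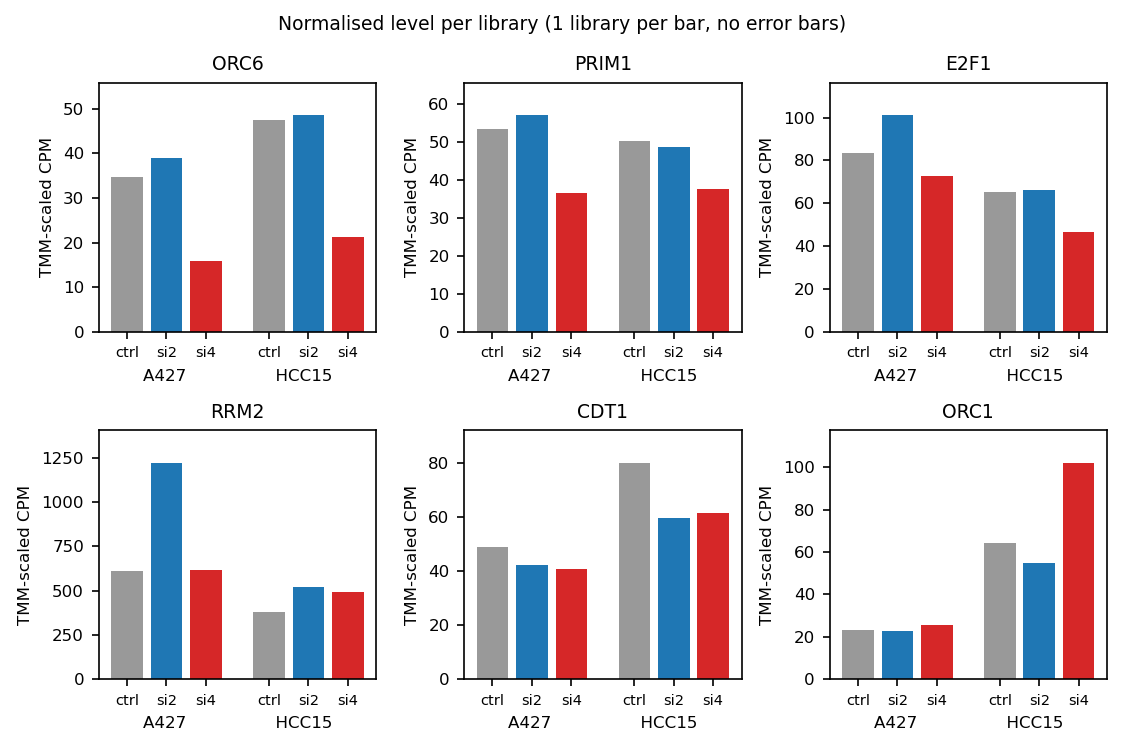
Normalised level (TMM-scaled CPM, y axes from 0) of 6 genes in each library, with A427 on the left of each panel and HCC15 on the right, for the control siRNA (ctrl), LGR6 siRNA 2 (si2) and LGR6 siRNA 4 (si4). Each bar is 1 library, and ORC6 is at 15.8 and 21.4 CPM with siRNA 4 against 34.7 or more in the other 4 libraries.

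Counting over all 35 genes, 2 were lower with siRNA 4 than with control and 0 were higher, or 5.71% of the list, where 12.5% of all tested genes passed in either direction, 7.95% lower and 4.58% higher. Between siRNA 4 and siRNA 2, the 3 genes above were lower and 0 were higher, or 8.57% beside 16.5% of all genes (8.84% lower and 7.7% higher). In both lines at once, 7 of the 35 were higher with siRNA 4 than with siRNA 2 (20%, beside 33.9% of all genes) and 12 lower (34.3%, beside 33% of all genes). The median log2 fold change over the list was -0.03 for siRNA 4 against control and -0.01 between the siRNAs, beside -0.01 and 0.00 over all tested genes. These medians join lines in which the list lay on opposite sides of the control. With siRNA 4, 26 of the 35 genes were below the A427 control (median log2 ratio -0.18) and 22 were above the HCC15 control (median 0.08). With siRNA 2, 21 were above the control in A427 (median 0.09) and 22 below it in HCC15 (median -0.09). The median over all tested genes was -0.01 for siRNA 2 in A427 and 0 in the other 3 libraries. Of the 14481 tested genes, 7131 were below the control with siRNA 4 in A427 and 7105 above it in HCC15. For siRNA 2, 6796 were above the control in A427 and 7115 below it in HCC15. Each of these ratios compares 1 library with 1 library and has no replicate check.

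The promoters of these 3 genes and of RRM2, described below, are shown because E2F factors and NF-Y, which binds the CCAAT box, are known regulators of S-phase genes. The sequences are the 250 bases before the RefSeq start (GRCh38.p14), 5′ to 3′ on the strand of the gene. Capitals mark matches, on either strand, to CCAAT or to 4 E2F motif words, TTTCCCGC, TTTGGCGC, TTTCGCGC and TTTGCCGC. The stretches are chr16:46689409-46689658, plus strand, for ORC6, chr12:56752324-56752573, minus strand, for PRIM1, chr20:33686386-33686635, minus strand, for E2F1 and chr2:10122489-10122738, plus strand, for RRM2.
ORC6: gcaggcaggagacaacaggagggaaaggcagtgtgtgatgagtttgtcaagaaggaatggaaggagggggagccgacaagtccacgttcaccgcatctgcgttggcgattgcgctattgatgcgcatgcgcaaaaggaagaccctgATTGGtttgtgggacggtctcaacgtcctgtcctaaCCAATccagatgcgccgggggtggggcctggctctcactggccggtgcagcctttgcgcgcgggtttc
PRIM1: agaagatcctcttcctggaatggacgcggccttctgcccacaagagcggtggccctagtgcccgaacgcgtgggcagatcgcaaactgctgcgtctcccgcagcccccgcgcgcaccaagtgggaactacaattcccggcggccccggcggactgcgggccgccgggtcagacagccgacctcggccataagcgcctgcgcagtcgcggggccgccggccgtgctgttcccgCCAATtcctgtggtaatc
E2F1: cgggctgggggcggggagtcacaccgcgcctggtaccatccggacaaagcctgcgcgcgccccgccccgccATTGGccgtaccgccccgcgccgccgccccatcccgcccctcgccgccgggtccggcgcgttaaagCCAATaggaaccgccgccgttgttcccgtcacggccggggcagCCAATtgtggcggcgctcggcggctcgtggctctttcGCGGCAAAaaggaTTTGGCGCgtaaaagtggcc
RRM2: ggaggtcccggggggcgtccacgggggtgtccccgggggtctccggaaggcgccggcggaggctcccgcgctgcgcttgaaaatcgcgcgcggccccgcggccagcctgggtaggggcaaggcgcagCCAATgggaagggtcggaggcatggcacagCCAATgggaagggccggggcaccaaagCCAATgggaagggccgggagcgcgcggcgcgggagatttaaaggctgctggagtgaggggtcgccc

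The ORC6 stretch held 2 CCAAT matches and the PRIM1 stretch 1, and neither held an E2F word. E2F1 held 2 E2F words and 3 CCAAT matches, and RRM2 held 3 CCAAT matches and no E2F word. Of the 35 genes, 32 matched a promoter entry by symbol, all but MCM4, MCM5 and GINS4. An E2F word was found in 12 of these 32 (37.5%), among them MCM3, MCM6, MCM7, PCNA and CDT1, and in 3.4% of the 27305 genes with an entry. CCAAT was found in 21 of 32 (65.6%) and in 37% of all genes with an entry. These 27305 genes are not the 14481 tested here, so the motif shares set unlike groups of genes side by side. No member had an E2F match that shared bases with a CCAAT match. A match describes letters in the window and was not measured as a binding site, and genes with several listed starts were counted if any start had a match.

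The genes on either side of ORC6 were looked at after the values had been seen. Along chromosome 16, the next tested gene after ORC6 is MYLK3, a myosin light chain kinase gene, and the one after that is C16orf87. Both were lower with siRNA 4. For C16orf87 the A427 libraries held 257 reads (control), 247 (siRNA 2) and 61 (siRNA 4), and the HCC15 libraries 801, 894 and 206. Its siRNA 4 library was the lowest of each line. Its log2 fold change was -1.95 against control (SE 0.18, adjusted p = 0.00121, edgeR, Benjamini-Hochberg). MYLK3 had 404, 584 and 52 reads in HCC15, and 1, 1 and 0 in A427, where no change could be read. Its log2 fold change was -2.92 against control (SE 0.28, adjusted p = 0.00121, edgeR, Benjamini-Hochberg), a value that rests on HCC15. The gene before ORC6, VPS35, stood at 0.01 (SE 0.11) for the same contrast and GPT2, the gene after C16orf87, at -0.29 (SE 0.26). Neither passed. ORC6 shares no exon bases with any other gene in the GENCODE 29 annotation. Flanking ORC6, PRIM1 or E2F1 (3 on each side) were 18 tested genes. Of these, MYLK3 and C16orf87 were the only 2 called for siRNA 4 against control. Of all tested genes 12.5% were called there, so the count for that contrast is near the background. For siRNA 4 against siRNA 2, 5 of the 18 were called, beside 16.5% of all tested genes. SHCBP1, MYLK3 and C16orf87 were lower, and PTGES3 and NACA higher. For siRNA 2 against control 1 of the 18 was called, beside 7.62% of all tested genes. Whether the fall of ORC6 and that of its neighbours have a common source was not tested.

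**Figure D2:**
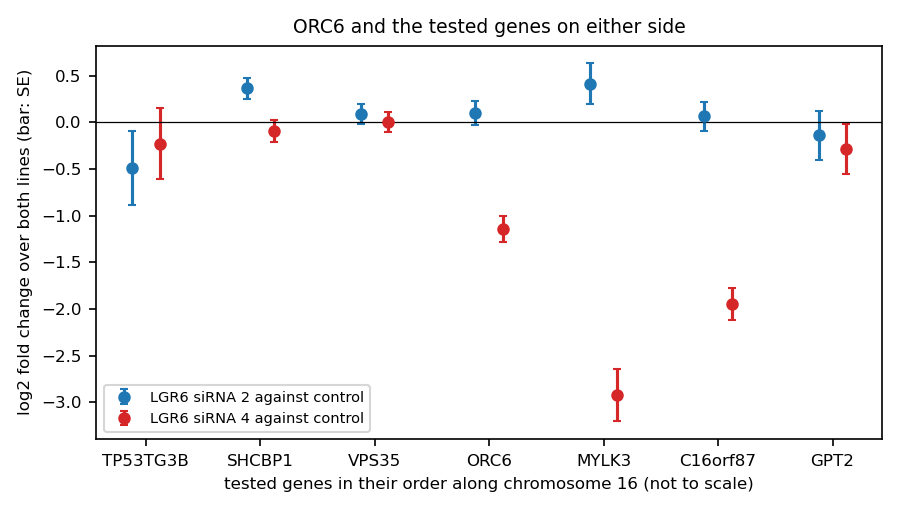
Log2 fold change over both lines (y axis, bars are SE) of ORC6 and 3 tested genes on each side, in their order along chromosome 16 and not to scale, for LGR6 siRNA 2 (blue) and LGR6 siRNA 4 (red) against control. With siRNA 4, ORC6 is at -1.14, MYLK3 at -2.92 and C16orf87 at -1.95, while VPS35 is at 0.01. The MYLK3 values rest on HCC15, since A427 had 1, 1 and 0 reads. Those of TP53TG3B rest on A427, since HCC15 had 0 reads.

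The other licensing genes moved in several directions, and none of them passed in a contrast between siRNAs or against control. CDT1, the loading factor that geminin restrains, was at 48.8 CPM in the A427 control library against 42.4 with siRNA 2 and 40.8 with siRNA 4, and in HCC15 at 80.2 against 59.6 and 61.5. The log2 fold change was -0.32 for each siRNA (SE 0.13 for both). The adjusted p were 0.169 for siRNA 2 and 0.136 for siRNA 4 (edgeR, Benjamini-Hochberg). The comparisons share their control libraries, so the likeness of these values is no repeat of a finding. CDC6, the ATPase that works with CDT1, stood at -0.39 with siRNA 2 (SE 0.15) and -0.32 with siRNA 4 (SE 0.15), from 127 CPM in the A427 control and 201 in the HCC15 control. ORC1, the largest subunit of the origin complex, was high in 1 library. It stood at 102 CPM in HCC15 with siRNA 4, beside 64.2 with the control and 55.0 with siRNA 2, and at 23.0, 22.8 and 25.8 in A427. The ORC1 log2 fold change for siRNA 4 against control was 0.44 (SE 0.18, adjusted p = 0.145, edgeR, Benjamini-Hochberg). Without the A427 siRNA 4 library, where siRNA 4 was represented by HCC15 alone, it was 0.72 (adjusted p = 0.0272, edgeR, Benjamini-Hochberg). ORC1 and ORC6, subunits of the same complex, were thus on opposite sides of the control with siRNA 4.

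The MCM2 to MCM7 helicase, which unwinds the template, showed no called change in any siRNA contrast. For siRNA 4 against control the 6 genes lay between -0.09 and 0.13, and their 95% intervals reached from -0.40 to 0.41. For siRNA 2 they lay between -0.34 (MCM5) and 0.12 (MCM4), with intervals from -0.71 to 0.40, so decreases of the size seen for PRIM1 could not be set aside for every subunit. MCM5 was at 173, 140 and 138 CPM in the 3 A427 libraries, in the order control, siRNA 2, siRNA 4, and at 123, 95.5 and 146 in HCC15. Its siRNA 4 library was below the control in A427 and above it in HCC15.

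Of the factors that activate the helicase, none passed in a contrast between siRNAs or against control. GINS3, a subunit of the GINS complex, was at 10.3, 13.2 and 14.4 CPM in A427 and 27.0, 26.2 and 37.6 in HCC15. Its siRNA 4 libraries were the highest of each line. Its log2 fold change with siRNA 4 was 0.48 (SE 0.16, adjusted p = 0.0957, edgeR, Benjamini-Hochberg). GINS2, another subunit, was at 41.4, 32.6 and 37.8 CPM in A427 and 56.4, 37.3 and 63.6 in HCC15, lowest with siRNA 2 in both. It stood at -0.47 with siRNA 2 (SE 0.16, adjusted p = 0.114) and at 0.50 for siRNA 4 against siRNA 2 (SE 0.16, adjusted p = 0.0667), by edgeR with Benjamini-Hochberg adjustment. MCM10, which helps start DNA unwinding, was at 58.1, 85.3 and 65.5 CPM in A427 and 103, 112 and 128 in HCC15, or at 0.34 with siRNA 2 (SE 0.15) and 0.25 with siRNA 4 (SE 0.15). CDC45 was at 23.6, 27.0 and 19.8 CPM in A427 and 65.3, 54.6 and 58.6 in HCC15, with siRNA 2 above the control in A427 and below it in HCC15.

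**Figure D3:**
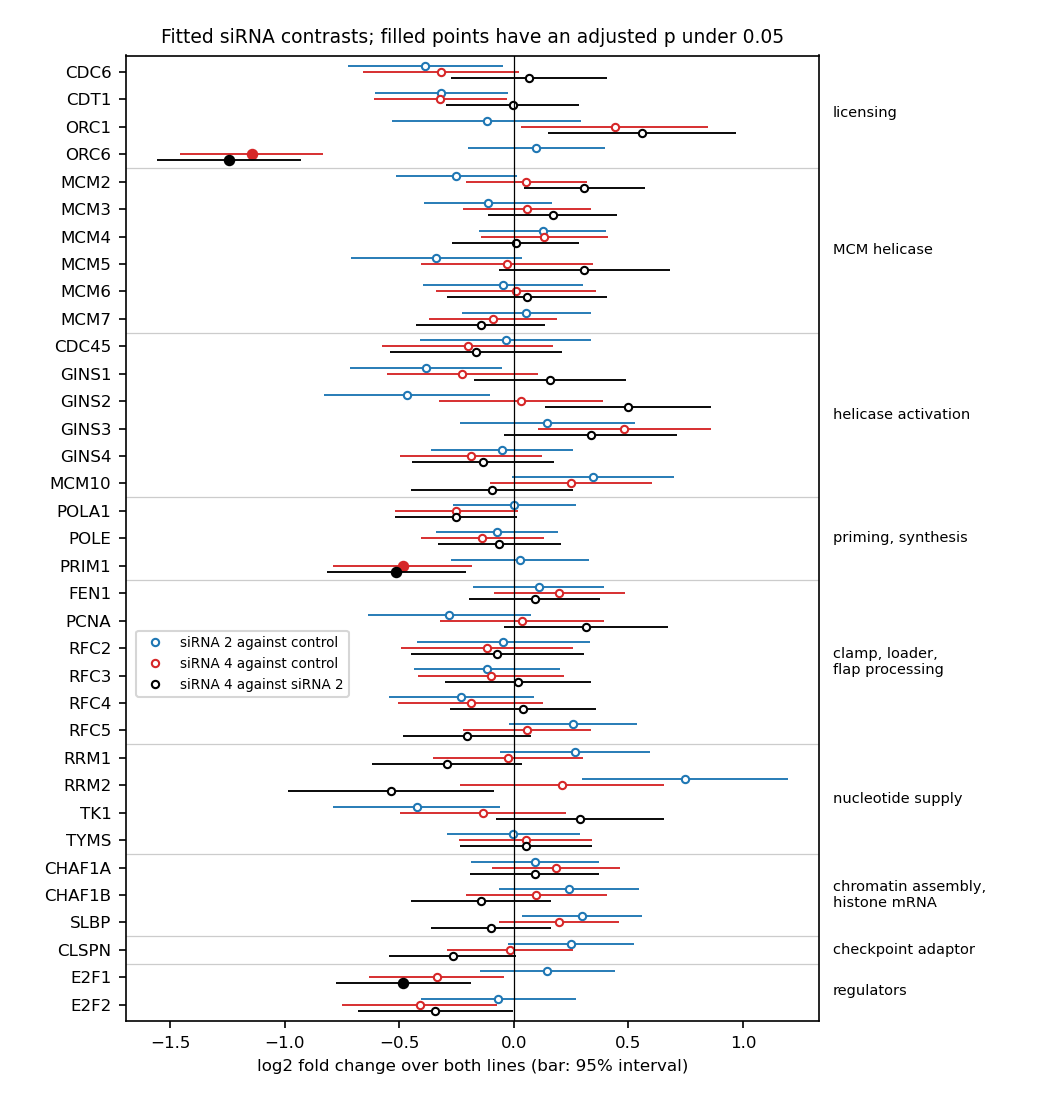
Log2 fold change over both lines (x axis, bars are 95% intervals) of the 35 genes, grouped by role, for siRNA 2 against control (blue), siRNA 4 against control (red) and siRNA 4 against siRNA 2 (black). Filled points have an adjusted p under 0.05 and are ORC6 and PRIM1 in the red and black series and E2F1 in the black.

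The nucleotide suppliers held the highest value of the 35 genes with siRNA 2. RRM2, the small subunit of ribonucleotide reductase and the one that limits its activity in S phase, was at 609.5 CPM in the A427 control library, 1222 under siRNA 2 and 615 under siRNA 4. The HCC15 libraries held 380, 518 and 493 CPM. With siRNA 2 it was at 2.01-fold its control in A427 and 1.36-fold in HCC15, and with siRNA 4 at 1.01-fold and 1.3-fold. The fitted log2 fold change with siRNA 2 was 0.75 (SE 0.20, adjusted p = 0.0564, edgeR, Benjamini-Hochberg), just outside the threshold. DESeq2 gave 0.77 (adjusted p = 0.00720, Benjamini-Hochberg), and limma on log2(TPM + 1) gave 0.79 with 0.0435, so the call depended on the test. In edgeR (Benjamini-Hochberg) it passed without the A427 siRNA 4 library (0.73, adjusted p = 0.0224) and without the HCC15 siRNA 4 library (0.75, adjusted p = 0.0438). It also passed without the HCC15 siRNA 2 library (1.09, adjusted p = 0.0300, edgeR, Benjamini-Hochberg), a fit in which siRNA 2 was represented by A427 alone. It did not pass when any 1 of the other 3 libraries was left out. Its partner RRM1, the large subunit, was at 144, 191 and 129 CPM in A427 and 253, 274 and 269 in HCC15, or 0.27 with siRNA 2 (adjusted p = 0.299, edgeR, Benjamini-Hochberg). TK1, the thymidine salvage kinase, was at 96.7, 78.3 and 78 CPM in A427 and 42.2, 28.5 and 43.1 in HCC15, or -0.42 with siRNA 2 (SE 0.16, adjusted p = 0.145, edgeR, Benjamini-Hochberg). TYMS, which makes thymidylate anew, stayed between 304 and 330 CPM in A427 and between 138 and 161 in HCC15. The opposite-strand gene ENOSF1 shares 39.1% of the exon bases of TYMS, and the sources used here do not give the strand setting of the counting, so the level of TYMS is uncertain. RRM2 shares 20.2% of its exon bases in GENCODE 29 with the same-strand gene AC007240.1, and PRIM1 shares 14.9% with the same-strand gene AC117378.1. Neither partner was analysed here, and a strand setting would not separate reads from these shared bases, so the levels of RRM2 and PRIM1 carry this uncertainty too. Opposite-strand genes also share exon bases with MCM2 (22.7%, AC023593.1), GINS4 (21.2%, AC009630.2) and GINS3 (10.9%, AC009118.2). Their levels are uncertain in the same way as that of TYMS.

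For siRNA 2 against control, 0 of the 35 genes passed in edgeR, beside 7.62% of all tested genes (2.96% higher and 4.66% lower). In edgeR 7 of the 35 had an unadjusted p under 0.05, beside 3562 of the 14481 tested genes. DESeq2 called 1 (RRM2), limma on log2(TPM + 1) called 1 (RRM2) and limma on log2(TPM + 0.1) called 0. The shares of all tested genes called by these 3 alternatives are not given here. The list's median was -0.04 beside -0.01 over all genes. In both lines at once, 13 of the genes were above their control with siRNA 2 (37.1%, beside 31.5% of all genes) and 14 below (40%, beside 33.7%). For siRNA 4 these were 9 above (25.7%, beside 35% of all genes) and 13 below (37.1%, beside 34.6%). Replication-dependent histone genes, whose transcripts end without a poly(A) tail and whose levels depend on poly(A) selection as well as on S phase, summed to 125, 75.3 and 114 CPM over 72 genes in A427 and to 223, 222 and 203 in HCC15. Their part in these results was not tested.

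The sliding clamp, its loader and the flap nuclease FEN1 gave no call in the siRNA contrasts. PCNA, the clamp, was at 236, 190 and 197 CPM in A427 and at 121, 102 and 152 in HCC15. Both LGR6 siRNA libraries of A427 were below their control, while in HCC15 siRNA 2 was below and siRNA 4 above. RFC4 was at 139, 124 and 110 CPM in A427 and 53.0, 43.0 and 51.5 in HCC15, or at -0.23 with siRNA 2 (SE 0.14) and -0.19 with siRNA 4 (SE 0.14). FEN1, which trims the ends of Okazaki fragments, was at 98.3, 108 and 103 CPM in A427 and 121, 128 and 152 in HCC15, or at 0.11 with siRNA 2 (SE 0.13) and 0.20 with siRNA 4 (SE 0.13). SLBP, which binds histone mRNA, was at 82.2, 102 and 91.5 CPM in A427 and 88.5, 108 and 104 in HCC15, or at 0.30 for siRNA 2 (SE 0.11, adjusted p = 0.155) and 0.20 for siRNA 4 (SE 0.11, adjusted p = 0.298), by edgeR with Benjamini-Hochberg adjustment. POLA1, the catalytic subunit of polymerase alpha and partner of PRIM1, was at 131 CPM in the HCC15 control, 132 with siRNA 2 and 105 with siRNA 4, and at 73.3, 73.4 and 64.7 in A427. It stood at -0.25 for siRNA 4 against control (SE 0.12, adjusted p = 0.196, edgeR, Benjamini-Hochberg), which did not pass. CLSPN, the claspin adaptor of the replication checkpoint, was at 87.2, 109 and 82.9 CPM in A427 and 98.7, 112 and 101 in HCC15, highest with siRNA 2 in both.

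**Figure D4:**
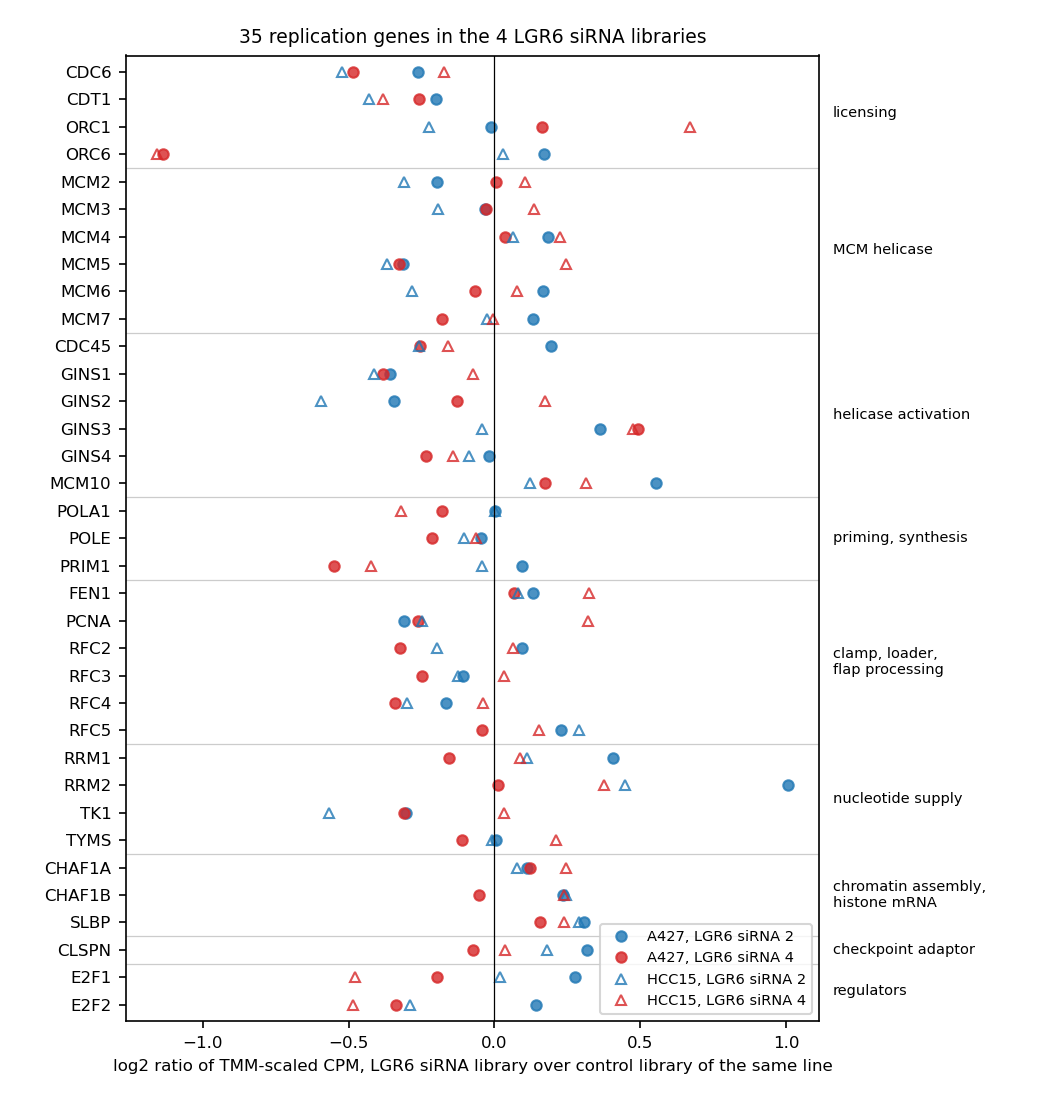
Log2 ratio of TMM-scaled CPM of each LGR6 siRNA library over the control library of its line (x axis) for the 35 genes grouped by role, with A427 as filled circles, HCC15 as open triangles, siRNA 2 in blue and siRNA 4 in red. Each point is 1 library, ORC6 with siRNA 4 lies lowest at -1.14 and -1.15, and RRM2 with siRNA 2 in A427 lies highest at 1.0.

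Both LGR6 siRNAs fitted as 1 arm gave 0 called genes of the 35, beside 0% of all tested genes (edgeR, line plus arm). CDT1 had the smallest p, with a log2 fold change of -0.32 (SE 0.13, unadjusted p = 0.0453, adjusted p = 0.465, edgeR, Benjamini-Hochberg). In the same edgeR fit 1 of the 35 genes had an unadjusted p under 0.05, beside 1512 of the 14481 tested genes. DESeq2 and limma on TPM also called 0. In the fit with a replicate block for siRNA number, ORC6 alone passed, at -0.52 (adjusted p = 0.0280, edgeR, Benjamini-Hochberg). That mean joins siRNA 4, where ORC6 fell, with siRNA 2, where it did not. The test of whether the response differed between HCC15 and A427 called 0 of 35 (0% of all genes, with 0 of the 35 at an unadjusted p under 0.05, and 0 by DESeq2 and limma). PCNA had the smallest p of the list for this difference, at 0.35 with an interval of -0.73 to 1.43.

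For comparison, replication genes outside the 35 were counted. Their list was chosen with earlier results of these data known, so it is no independent background for the 35. Of 40 such genes, siRNA 4 against control gave 1 higher and 5 lower, or 15% called (2.5% higher and 12.5% lower), beside 12.5% of all tested genes (4.58% higher and 7.95% lower). The lower ones included DNA2 (-0.96, SE 0.15), a nuclease and helicase of Okazaki fragment processing, and GMNN (-0.83, SE 0.12), the geminin gene, whose product inhibits CDT1. DSCC1 (-0.70, SE 0.15), part of an alternative clamp loader, and ORC2 (-0.48, SE 0.12), another origin complex subunit, also fell. UHRF1, which keeps DNA methylation through replication, rose by 1.13 (SE 0.15). The largest adjusted p among DNA2, GMNN, DSCC1, ORC2 and UHRF1 was 0.0333 (edgeR, Benjamini-Hochberg). With siRNA 2, UHRF1 (0.61, SE 0.15) and DBF4 (0.53, SE 0.12), the activator of the origin-firing kinase CDC7, rose and 0 genes fell, or 5% called beside 7.62% of all genes. DBF4 was also the remaining 1 of the 5 genes lower with siRNA 4, at -0.47 (SE 0.12, adjusted p = 0.0420), and against siRNA 2 it was at -1.0 (SE 0.12, adjusted p = 0.00223), by edgeR with Benjamini-Hochberg adjustment. These DBF4 values were added after they had been seen. The median of the 40 was 0.01 with siRNA 4 and 0.09 with siRNA 2, beside -0.01 over all tested genes in each. Among the S-phase cyclins and their kinase, cyclin E2 (CCNE2, -1.45, SE 0.17) and cyclin A2 (CCNA2, -0.65, SE 0.11) fell with siRNA 4 (adjusted p = 0.00204 for the first and 0.00954 for the second, edgeR, Benjamini-Hochberg). These 2 are 50% of the 4 genes, beside 12.5% of all tested genes (7.95% lower). CCNE1 stood at 0.41 (SE 0.16) and did not pass. Of the 6 other E2F genes, E2F3 (0.92, SE 0.16) and E2F4 (0.71, SE 0.13) rose with siRNA 4, and E2F4 (0.55, SE 0.13) rose with siRNA 2. The largest adjusted p of these was 0.0404 (edgeR, Benjamini-Hochberg). This was 33.3% of the list with siRNA 4, beside 12.5% of all tested genes (4.58% higher). For siRNA 2 it was 16.7%, beside 7.62% (2.96% higher).

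Of 14 late cell cycle genes, 0 passed for siRNA 4 against control, beside 12.5% of all tested genes. In edgeR 1 of the 14 had an unadjusted p under 0.05, beside 4256 of the 14481 tested genes. With siRNA 2, 3 fell, namely FOXM1 (-1.27, SE 0.17), the regulator of G2 and M genes, the mitotic kinase gene AURKA (-1.04, SE 0.14) and the topoisomerase gene TOP2A (-0.78, SE 0.15). The largest adjusted p of these was 0.0224 (edgeR, Benjamini-Hochberg). These 3 are 21.4% of the list, beside 7.62% of all tested genes (4.66% lower). The other 11 did not pass. Of these, 7 had a positive value with an unadjusted p under 0.05 in edgeR. Over all 14481 tested genes, 3562 were under 0.05 in either direction. The nearest of the 11 to the threshold was the proliferation marker MKI67 at 0.47 (SE 0.12, adjusted p = 0.0550, edgeR, Benjamini-Hochberg). The median of the 14 was 0.20 with siRNA 2, opposite in sign to the 3 genes that fell.

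Many of the 35 genes differed between the cell lines. HCC15 against A427 called 27 of 35 (77.1%), 18 higher in HCC15 (51.4%) and 9 lower (25.7%). Among all tested genes 76.5% passed, 37.2% higher and 39.3% lower, so the share called was that of any genes. The 3 HCC15 libraries lay wholly above the 3 A427 libraries for 16 genes (32.7% of all genes did) and wholly below for 9 (35.3% of all genes did).

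Licensing factors were higher in HCC15, 4 of 4, where 37.2% of all tested genes were higher. A list of 4 genes is small for such a share. ORC1 was 2.99-fold higher, at a log2 difference of 1.58 (SE 0.15). Its A427 libraries spanned 22.8 to 25.8 CPM and its HCC15 libraries 55.0 to 102. CDC6 stood at 0.68 (SE 0.12), CDT1 at 0.60 (SE 0.10) and ORC6 at 0.40 (SE 0.11). The ORC6 difference did not pass without the A427 control library (adjusted p = 0.0636) or the HCC15 control library (adjusted p = 0.0608), nor in a fit of line alone (adjusted p = 0.421), in edgeR with Benjamini-Hochberg adjustment. In helicase activation, CDC45 (1.35, SE 0.14), GINS3 (1.26, SE 0.14), MCM10 (0.72, SE 0.13) and GINS2 (0.47, SE 0.13) were higher, and GINS1 and GINS4 did not pass. GINS2 did not pass without the A427 siRNA 4 library (0.32, adjusted p = 0.0616) or in the fit of line alone (adjusted p = 0.0816), in edgeR with Benjamini-Hochberg adjustment.

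Within several complexes, subunits that act together differed in opposite directions between the lines. Of all tested genes 37.2% were called higher and 39.3% lower, so opposite calls among a few genes are not particular to these complexes. In the MCM ring, MCM3 was 2.06-fold higher in HCC15 (log2 1.04, SE 0.10) and MCM2 was 2.02-fold lower (log2 -1.01, SE 0.09). MCM2 lay between 216 and 248 CPM in A427 and between 98.9 and 132 in HCC15, and MCM3 between 162 and 166 and between 298 and 374. MCM4 (0.68, SE 0.10) and MCM7 (0.50, SE 0.10) were higher, and MCM5 and MCM6 did not pass. In the clamp loader, RFC3 (1.22, SE 0.11), RFC2 (0.81, SE 0.14) and RFC5 (0.49, SE 0.10) were higher in HCC15, while RFC4 was 2.52-fold lower (log2 -1.34, SE 0.11). RFC4 lay between 110 and 139 CPM in A427 and between 43.0 and 53.0 in HCC15. In ribonucleotide reductase, RRM1 was higher (0.80, SE 0.12) and RRM2 lower (-0.75, SE 0.16). In the chromatin assembly factor, CHAF1B was higher (0.96, SE 0.11) and CHAF1A lower (-0.45, SE 0.10).

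Genes lower in HCC15 included the enzymes of thymidylate supply, TK1 (-1.17, SE 0.13) and TYMS (-1.14, SE 0.10), the clamp PCNA (-0.74, SE 0.13) and the regulators E2F1 (-0.54, SE 0.11) and E2F2 (-0.59, SE 0.12). POLA1 was higher (0.79, SE 0.10) and FEN1 too (0.37, SE 0.10), although FEN1 did not pass without the A427 siRNA 4 library (0.27, adjusted p = 0.0633, edgeR, Benjamini-Hochberg). PRIM1, POLE, SLBP and CLSPN did not pass, with differences between -0.13 and 0.17. E2F1 and E2F2 were among the 9 of the 35 genes lower in HCC15, where 18 were higher. Of the 6 other E2F genes, 2 were higher and 1 lower. A link between the E2F levels and those of the other genes was not tested.

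**Figure D5:**
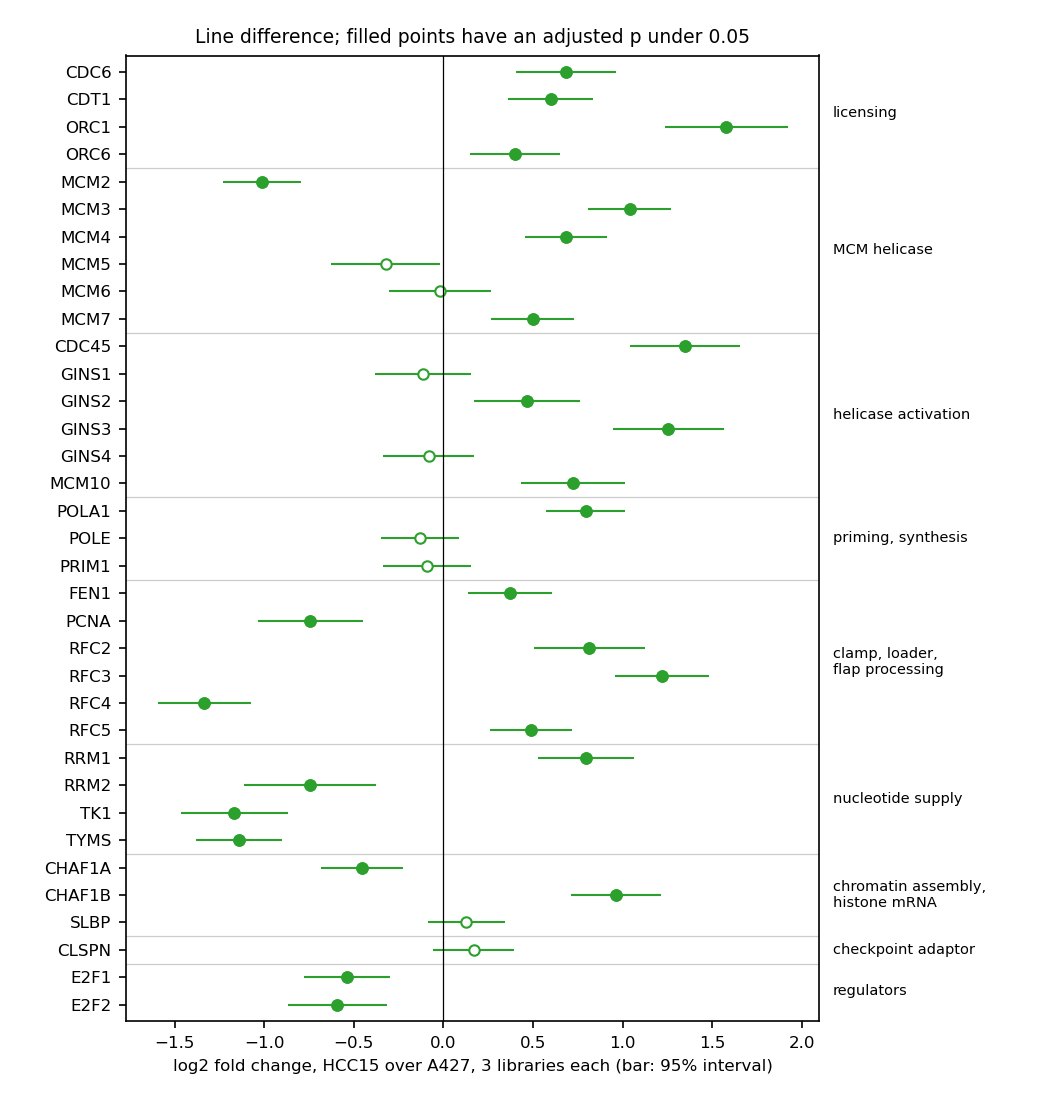
Log2 fold change of HCC15 over A427 (x axis, 3 libraries in each line, bars are 95% intervals) for the 35 genes grouped by role, with filled points for an adjusted p under 0.05. MCM3 at 1.04 and MCM2 at -1.01 lie on opposite sides of 0, as do RFC3 at 1.22 and RFC4 at -1.34.

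On the scale per transcript length, the most abundant of the 35 transcripts in the A427 control library were TYMS (493 TPM), PCNA (437 TPM), RRM2 (410 TPM) and RFC4 (241 TPM). In the HCC15 control library they were MCM7 (270 TPM), RRM2 (238 TPM), MCM3 (219 TPM) and PCNA (210 TPM). The lowest was GINS3 in A427 (10.4 TPM) and E2F2 in HCC15 (15.4 TPM). Summed over all 35 genes, the level was 3854, 4312 and 3477 TPM in the A427 control, siRNA 2 and siRNA 4 libraries and 3367, 3466 and 3467 TPM in HCC15. The 4 licensing genes summed to 199, 189 and 141 TPM in A427 and to 305, 261 and 253 TPM in HCC15, lower with both LGR6 siRNAs in each line. CDC6 and CDT1 were lower in every LGR6 siRNA library, though neither passed in an siRNA contrast. In CPM, GINS1, GINS4, RFC4 and POLE also lay below the control in every such library. The share of all tested genes that did so was not counted, and both siRNAs share the control library of each line. ORC6 with siRNA 2 was at 57.7 TPM beside 50.4 with the control in A427, and at 70.7 beside 64.5 in HCC15. Its fitted change for siRNA 2 was not called (0.10, interval -0.20 to 0.40). With siRNA 4 in HCC15, ORC1 was at 63.6 TPM beside 41.8 with the control, and its fitted change over both lines was not called either. Each sum is from 1 library and was not tested. The 4 nucleotide suppliers summed to 1147, 1599 and 1079 TPM in A427 and to 655, 789 and 733 TPM in HCC15. RRM2 went from 410 to 840 TPM with siRNA 2 in A427.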

How the data were processed

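Human A427 and HCC15 cells gave 6 libraries (KAPA mRNA HyperPrep, per the labels' protocols). FastQC 0.11.1, STAR 2.5.3a, RSEM 1.3.3 and hg19 are named in the submitters' processing notes, and no source used here names the gene annotation. Expected counts were deposited by the authors per gene symbol. They need not be whole (5.75% to 6.29% of values were not), so they were rounded here. Deposited TPM values were used for levels between genes and for alternatives.

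Genes reaching 10 reads in 2 or more libraries were scaled by TMM and fitted with edgeR 4.0.16 (glmQLFit, glmQLFTest, R 4.3.3), with p-values adjusted by Benjamini-Hochberg over all genes tested and called under 0.05. Intervals are 95% and SE is the fold change over the root of the F statistic. Contrasts between siRNAs, against control and between lines used line plus siRNA. Silencing by both siRNAs used line plus arm, and the difference in response used line by arm. An siRNA number stands for 1 reagent, per the labels, which pairs the libraries of A427 and HCC15. The siRNA 4 minus siRNA 2 differences correlated between the lines (0.594 across genes, which are not independent replicates). Chi-square per degree of freedom was 56.0 or more for every library pair, so no library was a duplicate of another. Alternatives were the filter, RLE scaling, DESeq2 1.42.0, limma 3.58.1 on log2(TPM + 1) and log2(TPM + 0.1), each library left out, and the replicate block.

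The 35 genes and the other gene lists were chosen with earlier results of these data known. Any of the 35 could be named. Values were to be given for at most 12 called genes per direction, and the 6 further genes higher in HCC15 (CDT1, MCM7, RFC5, GINS2, ORC6 and FEN1) were added after their values were seen. Of other lists, at most 4 called genes per direction, or 2 not called, were named. Promoters are RefSeq (GRCh38.p14) and gene order is from the same assembly, used for names and neighbours only. Exon overlap is from GENCODE 29.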

Additional observations from a re-analysis of the deposited data

How the results depend on the processing

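The count for HCC15 against A427 (27 genes of 35) stayed between 26 and 28 when each library was left out in turn. With no replicate block, in a fit of line alone, it was 25. Counts in the siRNA contrasts were small and moved more. The shares of all tested genes called in the alternative fits are not given here, so these counts cannot be set against them. For siRNA 2 against control, where edgeR called 0, DESeq2 called 1 and limma on log2(TPM + 1) called 1, and the count ran from 0 to 1 with a library left out. For siRNA 4 against control, where edgeR called 2, it was 1 with no filter on low counts and 1 with RLE scaling, since PRIM1 was lost (adjusted p = 0.0659 and 0.0523, edgeR, Benjamini-Hochberg), and 0 to 2 with a library left out. For siRNA 4 against siRNA 2, where edgeR called 3, it was 1 to 5 with a library left out. The 5 were reached without the A427 siRNA 4 library, when GINS2, MCM5, ORC1 and PCNA were called higher, each resting on HCC15 alone for siRNA 4. For both siRNAs together the replicate block gave 1 gene (ORC6) in place of 0, and for the difference in response it gave 0, as did the fit without it. The count for both siRNAs together was 0 to 0 and for the difference in response 0 to 0 with a library left out. The difference in response could not be fitted without a control library. No called gene changed direction under an alternative that was run. Each condition had 1 library per line, so an siRNA effect that differs between the lines could not be tested apart from the spread. For ORC1, which was high in 1 HCC15 library, it is therefore not known if the effect differs.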
